A study of Mus musculus with 12 samples.

Results

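The RNA recovered with a biotin-tagged control mimic was compared with the whole-cell RNA of control-mimic cells. Mimics are short synthetic RNA duplexes made to enter Argonaute proteins like a natural microRNA, and the biotin tag allows capture on streptavidin. A control mimic is meant to have no particular target, so its pulldown serves as the background of a pulldown with a tagged microRNA. The members were 6 libraries of the 12 in the series, pulldown control mimic 1 to 3 and whole-cell control mimic 1 to 3, and the 13551 genes of 20540 in the table with at least 1 CPM (reads scaled to the size of the library) in 3 or more of the 6. The other 6 libraries, from cells given biotin-tagged miR-27a mimic, served as a repeat of the contrast.

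All cells were oligodendrocyte progenitor cells (OPCs) of the C57BL/6 strain, taken from the brain at postnatal day 6 to 7 and kept in a medium labelled "SATO+PDGFRA". Both control-mimic groups received the same mimic and no other agent. They differed in the RNA sequenced, all RNA extracted from the cells or the RNA that came through the biotin pulldown. The labels do not say whether replicates are separate cultures, whether animals were pooled, or whether the pulldown and whole-cell RNA of a number came from the same cells. The p-values therefore measure the spread between these libraries, which may be technical. No source used here gives the control mimic's sequence.

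OPCs are dividing glial precursors marked by the PDGF receptor alpha, the proteoglycan NG2 and the transcription factors Olig1, Olig2 and Sox10. As they mature they leave the cell cycle and make the lipids and proteins of myelin. MicroRNAs guide Argonaute to partly matching sites, mostly in the 3′ untranslated regions of mRNAs, and Argonaute recruits TNRC6 proteins that lead to silencing and decay of the mRNA. A pulldown with a tagged microRNA is read against a control pulldown for this reason, since streptavidin beads also retain RNA without any match to the mimic.

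The 6 libraries held 15548418 to 24972188 assigned reads, and replicates of a group correlated at 0.994 to 0.997 (Pearson's r across genes, log2 values). Pulldown and whole-cell libraries lay apart on the first principal component, which held 82.0% of the variance. After thinning to the smallest library, whole-cell libraries had 17516 ± 65 genes with a read (mean ± SD, n = 3) and pulldown libraries 17245 ± 175, a difference within reach of the replicate spread (exact permutation test, two-sided, p = 0.2, where 0.1 is the smallest p that 3 against 3 allows). CPM gives a gene's level relative to the library size as the authors scaled it, by factors of 0.961 to 0.969 in whole-cell and 1.02 to 1.04 in pulldown libraries. It does not give how much RNA the pulldown recovered in all.

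The genes that differ between the sexes separated the groups, and this stands before the other results because it bears on whether the same cells gave both kinds of RNA. The Y-linked gene Eif2s3y, a translation initiation subunit, stood at 158, 146 and 142 CPM in whole-cell RNA and 29.7, 33.1 and 30.9 CPM in pulldown RNA (log2 change -2.22 ± 0.06, SE). Ddx3y, a Y-linked RNA helicase, went from 129 ± 6.44 to 30.6 ± 2.12 CPM (SD, n = 3), and the Y-linked demethylase genes Kdm5d and Uty from 86.7 ± 3.12 to 30.5 ± 2.47 CPM and 70.9 ± 5.22 to 24.3 ± 5.18 CPM. Xist, the long non-coding RNA that coats the inactive X chromosome of female cells, rose from 113 ± 4.87 to 339 ± 21.9 CPM. The pulldown libraries held less RNA of these Y-linked genes and more Xist, and the groups did not overlap in any of these 5 genes. The share of all genes tested whose groups did not overlap is not reported here, so non-overlap, here and below, sets no gene apart. The other Y-linked genes listed, Usp9y and Zfy1, were below the filter in both groups.

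Of 6 X-linked homologs of Y-linked genes, 1 rose and 4 fell, with a median log2 change of -0.42; Kdm6a was the rise (0.19) and Ddx3x, Eif2s3x, Usp9x and Zfx fell. The median was -0.13 after adjustment for GC content. The call of Kdm6a was lost without whole-cell replicate 2 or 3 (0.16 and 0.15) and that of Zfx (-0.30) after adjustment for GC content (-0.01). Reads shared between an X-linked gene and its Y-linked copy were not measured. Under miR-27a mimic the 4 Y-linked genes had a median change of -1.79, and Xist changed by 1.77. A difference in the sex of the animals behind the 2 kinds of RNA and a difference in capture cannot be told apart here, for these genes or for any other.

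**Figure D1:**
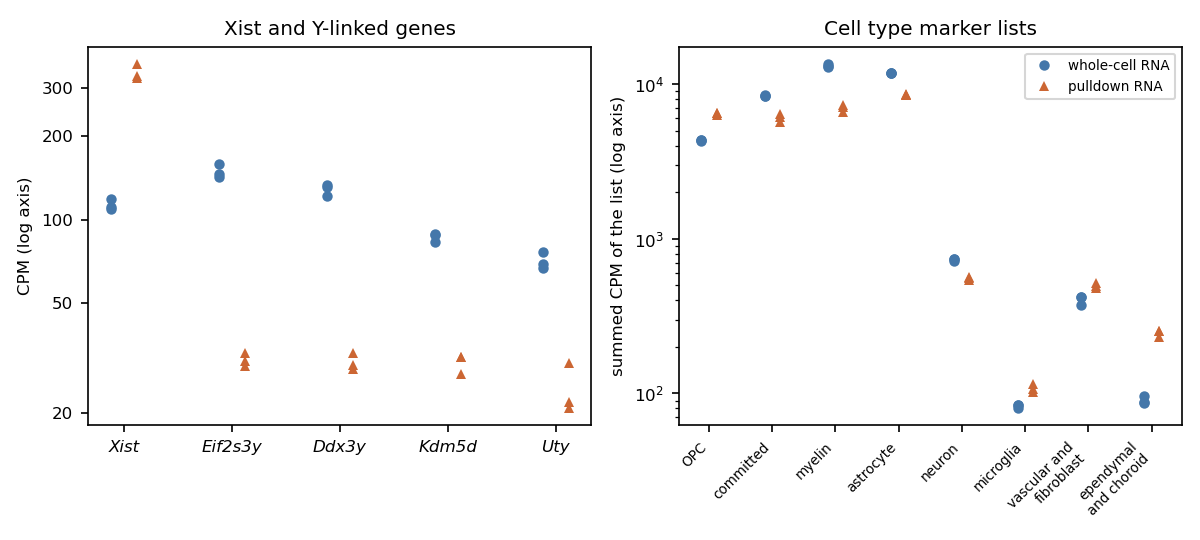
Left, CPM (log axis) of Xist and 4 Y-linked genes in each of 3 whole-cell (circles) and 3 pulldown libraries (triangles). Right, the summed CPM (log axis) of each cell type marker list in the same libraries. Xist is higher and every Y-linked gene lower in all pulldown libraries, and the summed OPC markers rise while the summed myelin genes fall.

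The main comparison asked which transcripts had a higher or lower relative level in the RNA that came with the control mimic. Pulldown RNA was not a copy of whole-cell RNA. Of 13551 genes tested, 8821 (65.1%) changed at an adjusted p under 0.05, 4436 (32.7%) higher and 4385 (32.4%) lower in the pulldown. As plain shares of the library total, 5235 were higher and 3640 lower. Changes here are differences of log2(CPM + 1) with their standard error (SE), a scale that understates the change of low genes. Most were small beside a doubling: the median absolute change was 0.34, the 90th percentile 0.78 and the median SE 0.09. At least 2-fold changes were found in 533 genes (3.93%), 301 higher and 232 lower. Each list below is read against these shares, 32.7% higher and 32.4% lower. Among the genes tested, 112 passed the CPM filter through the pulldown libraries alone and 49 through the whole-cell libraries alone.

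On this scale the largest rise was that of Dll3, a Notch ligand family member found in progenitors, which stood at 11.2, 13.6 and 13.01 CPM in whole-cell RNA and 62.3, 56.9 and 63.2 CPM in pulldown RNA (log2 change 2.19 ± 0.09, adjusted p = 1.38e-16, chromosome 7, 28293553 to 28302238, GRCm38). Fn1, which encodes the matrix protein fibronectin, stood at 8.54, 9.35 and 9.21 CPM in whole-cell RNA and 39.02, 40.4 and 39.9 CPM in pulldown RNA (2.02 ± 0.09). Mcm3ap, whose product helps export mRNA from the nucleus, stood at 84.6, 83.4 and 80.5 CPM in whole-cell RNA and 291, 335 and 324 CPM in pulldown RNA (1.92 ± 0.06). Every pulldown library lay above every whole-cell library in these genes, with the 3 values of a group close together.

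Nup98, a nuclear pore gene, rose from 50.8 ± 2.75 to 191 ± 7.63 CPM, and Bcor, which encodes a corepressor of BCL6, from 34.8 ± 1.92 to 123 ± 12.4 CPM. Mex3d, an RNA-binding ubiquitin ligase gene, rose from 21.9 ± 2.88 to 81.03 ± 2.19 CPM. The other leading rises were genes of secreted or melanosome proteins and a ribosomal RNA. Col1a2 and Lum, of fibrillar collagen and its partner lumican, changed by 2.10 ± 0.16 and 1.87 ± 0.10. In plain CPM, Col1a2 rose 8.30-fold from a low level (0.805 ± 0.230 to 6.68 ± 0.206 CPM) and Dll3 4.83-fold. Spp1, which encodes osteopontin, changed by 1.85 ± 0.07, the transthyretin gene Ttr by 1.83 ± 0.06, and Pmel, the amyloid scaffold of pigment granules, by 1.90 ± 0.11.

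Rn45s, the precursor of ribosomal RNA, stood at 5162, 6838 and 5373 CPM in whole-cell RNA and 21458, 19599 and 22588 CPM in pulldown RNA (1.88 ± 0.08). Its share of all assigned reads went from 0.558% ± 0.086 to 2.18% ± 0.14 (SD, n = 3, exact permutation test p = 0.1, the smallest possible). Ribosomal RNA had been depleted when the libraries were made, so this share is what depletion left and says nothing on the ribosomal RNA captured.

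On the same scale the largest fall was that of Ifit1, an antiviral gene induced by interferon, which stood at 7.59, 9.05 and 8.74 CPM in whole-cell RNA and 0.719, 1.27 and 0.553 CPM in pulldown RNA (-2.37 ± 0.16, adjusted p = 4.79e-12, chromosome 19, 34640871 to 34650009, GRCm38). Mobp, a myelin protein gene, stood at 12.4, 11.4 and 14.5 CPM in whole-cell RNA and 1.44, 1.93 and 1.998 CPM in pulldown RNA (-2.30 ± 0.14). Tppp, which encodes a tubulin-binding protein of oligodendrocytes, stood at 215, 206 and 216 CPM in whole-cell RNA and 54.1, 54.2 and 53.00 CPM in pulldown RNA (-1.96 ± 0.05), and its groups lay far apart relative to their spread. Ddc, the gene of aromatic amino acid decarboxylase, fell from 51.9 ± 1.43 to 12.5 ± 1.97 CPM, the growth factor gene Fgf1 from 18.7 ± 1.27 to 4.74 ± 0.770 CPM and the laminin gene Lama3 from 22.2 ± 1.60 to 5.96 ± 0.727 CPM. Usp18, Samd9l and Ifit3, further interferon-induced genes, changed by -2.33 ± 0.15, -2.07 ± 0.15 and -1.97 ± 0.16. The other leading falls were Mbp, described next, and the Y-linked Eif2s3y and Ddx3y above.

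**Figure D2:**
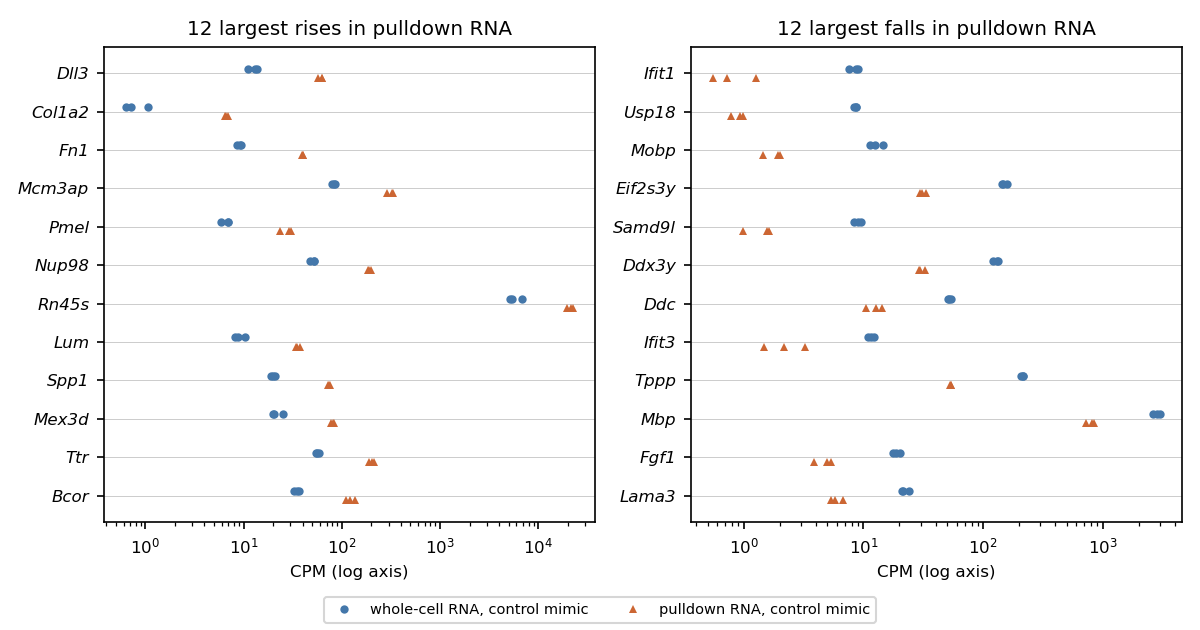
CPM (log axis) of the 12 genes with the largest rises and the 12 with the largest falls, one row a gene, with the 3 whole-cell libraries as circles and the 3 pulldown libraries as triangles. In each row the groups do not overlap, which the rule for naming these genes required.

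The oligodendrocyte lineage split by stage. Most myelin genes tested were lower in the pulldown, and most OPC markers were higher. Mbp, the gene of myelin basic protein, whose mRNA is carried into myelin processes, stood at 2625, 2985 and 2858 CPM in whole-cell RNA and 848, 725 and 815 CPM in pulldown RNA (-1.83 ± 0.06, adjusted p = 2.19e-18, chromosome 18, 82475146 to 82585637, GRCm38). Pdgfra, the receptor that defines OPCs, stood at 551, 559.8 and 551 CPM in whole-cell RNA and 1395, 1368 and 1357 CPM in pulldown RNA (1.31 ± 0.04, adjusted p = 9.90e-18, chromosome 5, 75152292 to 75198215). The 2 genes moved in opposite directions in all 3 libraries of each group.

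Of 23 myelin genes tested from 26 listed, 15 fell and 1 rose, with a median of -0.61 against 0.01 over all genes tested. Among them, 2 passed the filter through whole-cell or pulldown libraries alone, and 13 falls and the rise were of genes that passed in both. Cnp, a myelin enzyme gene, fell from 2786 ± 115 to 1655 ± 88.8 CPM. Mag, an adhesion protein gene of the inner myelin face, changed by -0.96 ± 0.07, and Opalin, a membrane protein gene of oligodendrocytes, by -0.97 ± 0.07. The rise was Apod, the lipid carrier apolipoprotein D (0.76). Here and below, where 5 or fewer members of a list went one way most are named for that reason, after their values were seen. The summed CPM of the list went from 13156 ± 288 to 7045 ± 396 CPM.

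Genes of committed and newly formed oligodendrocytes did not move together: 9 of 22 rose and 10 fell, with a median of -0.09 (-0.0037 with library totals). Changes ran from -1.34 to 1.05, with 1 rise and 1 fall of at least 2-fold. The members named here were those with the smallest p, most of them falls, and do not stand for the list. Bcas1 and Enpp6, markers of newly forming oligodendrocytes, changed by -0.96 ± 0.05 and -0.87 ± 0.06, the calcium channel gene Itpr2 by -0.85 ± 0.05, and the deacetylase gene Sirt2 by -0.93 ± 0.05. The oligodendrocyte long non-coding RNA 9630013A20Rik changed by -1.34 ± 0.05. Gpr17, a receptor of the stage between progenitor and myelinating cell, rose by 0.58 ± 0.05.

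Of 25 OPC markers, 18 rose and 1 fell, with a median of 0.78. Olig2, a lineage transcription factor, rose from 139 ± 4.10 to 279 ± 10.01 CPM, and Ptprz1, a receptor phosphatase gene, from 302 ± 7.73 to 582 ± 14.2 CPM. Matn4, of the matrix protein matrilin 4, changed by 1.41 ± 0.09, Lnx1, a ubiquitin ligase gene, by 1.22 ± 0.07, the proteoglycan gene Cspg5 by 0.91 ± 0.05 and the protocadherin gene Pcdh15 by 0.80 ± 0.06. Rlbp1, a retinoid-binding protein gene, was the fall (-0.22, not called with library totals). Sox10, which both progenitors and myelinating cells express, stood at 60.8, 60.7 and 60.5 CPM in whole-cell RNA and 55.1, 47.9 and 60.8 CPM in pulldown RNA, and its change of -0.16 ± 0.07 did not pass the test (adjusted p = 0.0652). It was called lower without pulldown replicate 3 (-0.23) and after adjustment for GC content (-0.47). The list's summed CPM went from 4316 ± 41.5 to 6442 ± 88.9 CPM, so the markers of the labelled cell type were present in both kinds of RNA. In these bulk libraries, a difference in capture, in the number of cells of a type and in RNA per cell cannot be told apart.

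Markers of the other cells that a brain preparation can hold also moved, in both directions. Of 19 astrocyte markers 6 rose and 9 fell, with a median of -0.10 (-0.0045 with library totals). Changes ran from -1.03 to 1.14, with 1 rise and 1 fall of at least 2-fold, and those named were among the smallest p. Aldh1l1, a folate enzyme gene used to mark astrocytes, changed by -1.03 ± 0.05, the water channel gene Aqp4 by -0.69 ± 0.05, Ndrg2 by -0.72 ± 0.05, S100b, a calcium-binding protein gene, by -0.93 ± 0.05, and Atp1b2, a sodium pump subunit gene, by 1.14 ± 0.08. Of 17 neuron markers tested from 20, 11 fell and 1 rose (median -0.42); Snap25, of the synaptic vesicle fusion machinery, fell from 28.1 ± 0.954 to 14.5 ± 1.10 CPM, Elavl3 and Celf4, RNA-binding protein genes of neurons, changed by -0.99 ± 0.07 and -0.90 ± 0.12, and Elavl4 was the rise (0.54). Rises numbered 2 without whole-cell replicate 3 or pulldown replicate 3, and 3 without pulldown replicate 2. The summed CPM went from 11807 ± 78.4 to 8535 ± 110.3 CPM for astrocyte markers and from 733 ± 14.2 to 556 ± 10.02 CPM for neuron markers.

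Markers of microglia, the immune cells of the brain, were low, with a summed CPM that went from 82.96 ± 2.26 to 108 ± 5.996 CPM. Of 14 tested from 18, 3 rose, among them Tmem119 (1.34) and Cd53 (0.78), and Ptprc (-0.52) fell. Ptprc lost its call without whole-cell replicate 2 or 3 or pulldown replicate 1 (-0.42, -0.46 and -0.39). The median of 0.05 turned to -0.0026 without whole-cell replicate 3, -0.02 without pulldown replicate 1 and -0.01 after adjustment for GC content, and was 0.01 without pulldown replicate 2. Of 14 endothelial, mural and fibroblast markers tested from 20, 9 rose and 5 fell, with a median of 0.95. Of these, 2 passed the filter through 1 group alone, and 7 rises and 5 falls were of genes that passed in both. Fibroblast genes were among the rises (Col3a1 1.67, Dcn 1.66), and the falls were Tagln (-1.35), Myl9 (-1.11), Rgs5 (-0.85), Acta2 (-0.73) and Cnn1 (-0.45), genes of contractile cells. Cldn5, the endothelial tight junction gene, was nearly undetected, with means of 0.039 CPM in whole-cell and 0.055 CPM in pulldown RNA. Of 12 ependymal and choroid plexus markers 6 were tested, and Ttr, Aqp1, Clic6 and Folr1 rose, by 1.83, 1.21, 1.03 and 1.01. The other 2 were not called, and the lowest change was -0.35. The cilia factor gene Foxj1 was not called. None fell in the main fit. At an unadjusted p under 0.05 by limma, 1 was lower, and voom called 0 lower. Leaving out pulldown replicate 3, median-of-ratios scaling, the fit of all 12 libraries and a replicate block each gave 1 fall. Adjustment for GC content gave 2. Summed CPM went from 404 ± 25.4 to 496 ± 18.2 CPM for the vascular and fibroblast list and from 90.3 ± 4.68 to 247 ± 11.6 CPM for the ependymal and choroid list. The part of other cell types in the results that follow was not tested.

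The list of interferon response genes was added after Ifit1 and Usp18 were seen among the falls. It held 28 falls and 6 rises among 36 tested of 43, with a median of -0.93. Of these, 4 passed the filter through 1 group alone, and 24 falls and 6 rises were of genes that passed in both. Interferon response genes are switched on by interferons, which cells release when they sense foreign double-stranded RNA. Eif2ak2, the gene of the kinase PKR that binds double-stranded RNA, stood at 66.7, 67.3 and 68.9 CPM in whole-cell RNA and 23.1, 30.8 and 25.5 CPM in pulldown RNA (-1.33 ± 0.08). The guanylate-binding protein genes Gbp3 and Gbp7 changed by -1.69 ± 0.11 and -1.48 ± 0.08. All 3 pulldown libraries lay below all whole-cell libraries for each of these 3 genes. Since leading falls prompted the list, its counts are a description only.

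Non-coding RNAs differed by class. Long non-coding RNAs did not move as one. Malat1, an abundant RNA of nuclear speckles, stood at 13309, 11449 and 12281 CPM in whole-cell RNA and 5637, 6449.5 and 5773 CPM in pulldown RNA (-1.05 ± 0.06). Neat1, the scaffold of paraspeckles, stood at 79.3, 73.8 and 79.4 CPM in whole-cell RNA and 34.04, 30.8 and 29.6 CPM in pulldown RNA (-1.27 ± 0.07). No pulldown library reached the level of any whole-cell library for either RNA. The imprinted RNAs Rian and H19 and the neural RNA Miat went the other way, by 1.44 ± 0.06, 1.49 ± 0.05 and 1.08 ± 0.06. Of 37 listed long non-coding RNAs tested, 20 rose and 6 fell (median 0.23). By annotated class, 39 of 146 long intergenic RNA genes tested rose and 25 fell (median 0.07), both lower shares than over all genes tested. Of 95 processed pseudogenes 3 rose and 43 fell (median -0.34). Reads that a pseudogene shares with its parent gene were not measured.

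Many of the small nucleolar RNAs (snoRNAs) tested rose in the pulldown, and 4 other small RNAs fell. Box C/D snoRNAs guide methylation of ribosomal RNA and box H/ACA snoRNAs guide its pseudouridylation, while their Cajal body relatives (scaRNAs) act on spliceosomal RNA. Of 27 tested Snora genes (box H/ACA) from 36 in the table, 17 rose and none fell, with a median of 0.50; of the 25 that passed the filter in both groups, 16 rose. Of 31 tested Snord genes (box C/D) from 71, 19 rose and none fell, with a median of 0.48; of the 25 that passed in both groups, 15 rose. All 6 scaRNA genes tested of 9 rose (median 0.82). No member of these families was lower at an unadjusted p under 0.05 by limma and voom on the recovered reads called 0 lower.

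The sequences of the snoRNAs with the largest rises in each box family and of the Y RNAs, which fell, are printed to show the marks by which these classes are told apart; they were chosen after values were seen, among genes with at least 1 CPM in all 6 libraries. They are GENCODE M21 transcripts on GRCm38, written in DNA letters, 5′ to 3′. Capitals mark TGATGA (box C) and CTGA near the end (box D) in the box C/D RNAs, the ACA triplet near the end in the box H/ACA RNAs, and the run of T at the end of the Y RNAs.
Snord49a: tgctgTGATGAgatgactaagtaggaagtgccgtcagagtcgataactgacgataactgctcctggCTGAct
Snord52: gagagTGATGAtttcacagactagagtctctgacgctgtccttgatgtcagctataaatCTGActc
Snora78: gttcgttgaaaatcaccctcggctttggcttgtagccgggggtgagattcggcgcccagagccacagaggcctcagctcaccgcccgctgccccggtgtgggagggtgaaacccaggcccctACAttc
Snora61: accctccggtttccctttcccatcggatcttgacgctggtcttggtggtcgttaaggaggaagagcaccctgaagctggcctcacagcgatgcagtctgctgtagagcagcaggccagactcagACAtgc
Rny1: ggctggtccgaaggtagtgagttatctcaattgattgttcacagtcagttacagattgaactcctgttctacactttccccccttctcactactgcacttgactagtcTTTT
Rny3: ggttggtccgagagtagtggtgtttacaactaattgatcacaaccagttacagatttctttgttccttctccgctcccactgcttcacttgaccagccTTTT

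Snord49a (chr11:62603450-62603521, plus strand) stood at 1.47, 2.01 and 1.20 CPM in whole-cell RNA and 5.03, 5.71 and 3.995 CPM in pulldown RNA (1.21 ± 0.17), and Snord52 (chr17:34950952-34951017, minus strand) at 1.66, 1.24 and 1.60 CPM in whole-cell RNA and 3.48, 3.44 and 3.61 CPM in pulldown RNA (0.85 ± 0.16). Snora78 (chr17:24719676-24719803, minus strand) changed by 0.83 ± 0.12 and Snora61 (chr4:132310240-132310369, plus strand) by 0.78 ± 0.16. How the counting divided reads between a snoRNA and a gene that overlaps it is not stated in any source used here. Of all 98 Snord transcripts of the snoRNA class in GENCODE M21, whether or not the table holds their genes, 75.5% hold TGATGA on the sense strand and 93.9% hold CTGA in the last 14 bases, against 0 and 7.14% of its 42 Snora transcripts; an ACA 2 to 4 bases from the end was found in 95.2% of Snora and 2.04% of Snord transcripts. A match describes letters and is no evidence of a bound protein.

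The Y RNAs, small cytoplasmic RNAs made by RNA polymerase III that bind the Ro60 protein, fell. Rny1 (chr6:47788069-47788180, minus strand) stood at 12.1, 20.9 and 22.6 CPM in whole-cell RNA and 7.07, 4.36 and 3.53 CPM in pulldown RNA (-1.70 ± 0.18), and Rny3 (chr6:47781624-47781725, plus strand) at 9.69, 14.9 and 14.3 CPM in whole-cell RNA and 6.65, 5.06 and 4.68 CPM in pulldown RNA (-1.10 ± 0.15). Whole-cell replicate 1 was the lowest of its group for both, and the groups still did not overlap. Rpph1, the RNA of ribonuclease P, which trims tRNA precursors, fell from 2705 ± 336 to 1223 ± 140.0 CPM, and Rn7sk, the RNA that holds back the elongation factor P-TEFb, from 21791 ± 1854 to 15174 ± 1444 CPM. Rmrp, the RNA of the related ribonuclease MRP, which cuts ribosomal RNA precursors, rose from 3399.7 ± 475 to 4551 ± 430.0 CPM. The libraries' share of reads in snoRNA and scaRNA genes together went from 0.0730% ± 0.0042 to 0.125% ± 0.0067 (exact permutation test p = 0.1, the smallest possible). In the mixed list of 41 tested small RNAs, 27 rose and 4 fell, with 26 rises and 4 falls among those that passed the filter in both groups. Rises numbered 19 without whole-cell replicate 1 (median 0.38), 22 without pulldown replicate 1 and 28 without pulldown replicate 3, with 4 falls each time.

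Only 26 of 376 listed microRNA genes were tested, and 11 of these rose while Mir3064 (-0.67) fell (median 0.33). Whether these reads came from microRNA precursors or from genes that overlap them was not measured. Mir9-1, of a neural microRNA, stood at 5.23, 9.64 and 5.81 CPM in whole-cell RNA and 13.4, 10.7 and 16.8 CPM in pulldown RNA (0.91 ± 0.16). Mir19a and Mir18, neighbours in 1 cluster on chromosome 14, changed by 1.06 ± 0.17 and 0.83 ± 0.17. Most of the other listed microRNA genes were too low for a test.

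Most genes tested of translation, splicing, protein turnover and energy metabolism were lower in the pulldown. Of 79 cytosolic ribosomal protein genes 62 fell and none rose, with a median of -0.20 (37 fell, with a median of -0.11, when CPM was scaled by library totals). Under miR-27a mimic 20 fell and none rose, with a median of -0.13. Rpl4 and Rpl17, of the large subunit, fell from 960.3 ± 6.72 to 681 ± 17.1 CPM and 166 ± 5.92 to 115 ± 3.83 CPM. Rps24, of the small subunit, changed by -0.49 ± 0.05. No ribosomal protein gene was higher at an unadjusted p under 0.05 by limma or called higher by voom, an alternative run on the reads recovered from the CPM values. With library totals 3 were called higher, and without pulldown replicate 2, 2 were. Of 78 mitochondrial ribosomal protein genes 52 fell, and Mrpl4, Mrpl12 and Mrpl44 rose (0.23, 0.27 and 0.30; median -0.25, or -0.16 with library totals). Mrpl4 and Mrpl12 lost their calls without whole-cell replicate 1 (0.16 and 0.15), which left 1 rise, and Mrpl12 also without pulldown replicate 3 (0.23). Both genes also lost their calls after adjustment for GC content (-0.01 and 0.14). Of 76 nuclear-encoded respiratory chain genes 56 fell and 7 rose (median -0.34, 4 rises without pulldown replicate 1), with Sdhc, of complex II, at -0.77 ± 0.07 and the cytochrome c gene Cycs at -0.71 ± 0.06. The mitochondrially encoded mRNAs listed were not found in the table and could not be analysed.

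Of 34 proteasome genes 33 fell and none rose, with a median of -0.50 (0 higher at an unadjusted p under 0.05 by limma and 0 by voom). Psmd14, the deubiquitinase of the lid, stood at 185, 186 and 177 CPM in whole-cell RNA and 99.4, 101 and 95.3 CPM in pulldown RNA (-0.89 ± 0.05), and Psma4, of the core ring, at 219.9, 215 and 218 CPM in whole-cell RNA and 121, 119.5 and 122 CPM in pulldown RNA (-0.84 ± 0.05). The pulldown libraries lay below the whole-cell libraries in both. Of 48 splicing factor genes 39 fell (median -0.40), among them Hnrnpu (-0.90), Hnrnpa2b1 (-0.84) and Luc7l3 (-1.13), which encode RNA-binding proteins of the nucleus, and Sf3a1 (0.88), Srrm1 (0.82) and Son (0.44) rose. Of 42 translation factor genes 32 fell (median -0.36). Eif2s2, of the factor that brings the initiator tRNA, stood at 156, 142 and 149 CPM in whole-cell RNA and 57.9, 58.6 and 66.6 CPM in pulldown RNA (-1.28 ± 0.06), and Eif3j changed by -1.15 ± 0.08. The rises were Eif3f, Eif4g2, Pabpc4, Pabpc1 and Eif1b, at 0.39, 0.28, 0.24, 0.22 and 0.16. Pabpc1 lost its call without whole-cell replicate 2 (0.18) and Eif1b without whole-cell replicate 3 (0.16).

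Of 19 glycolysis genes 14 fell and 2 rose, Slc2a1, the glucose transporter (0.53), and Hk2 (0.22; median -0.49). Hk2 lost its call without whole-cell replicate 1 (0.17) or pulldown replicate 2 (0.16). Gapdh, often used as a reference gene, fell from 53.8 ± 3.11 to 33.8 ± 2.03 CPM and Aldoa, an aldolase, from 332 ± 10.8 to 163 ± 15.8 CPM. Actb, the gene of beta-actin and another common reference, went from 6452 ± 162 to 4067 ± 217 CPM (-0.67 ± 0.05). Of 13 tubulin genes tested from 16, 12 fell and none rose (median -0.63, 0 higher at an unadjusted p under 0.05 by limma and 0 by voom), with Tubb6 at -0.94 ± 0.07 and Tuba1a at -0.72 ± 0.06. Tubulin, ribosomal protein and histone genes have near-identical copies and pseudogenes, and how the counting divided their reads is uncertain. Of 27 chaperone genes 18 fell and 5 rose (median -0.31). The cytosolic chaperones Hsp90aa1 and Hspa4 fell (-1.16 and -0.99). The rises were the stress-inducible Hspa1a and Hspa1b, which are near-identical copies, Bag3, Dnajb5 and Hspa5, at 0.60, 0.50, 0.78, 0.46 and 0.41. Hspa1b lost its call without whole-cell replicate 1 (0.31) or pulldown replicate 1 (0.44).

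Most called genes of the matrix, adhesion, guidance and potassium channel lists were higher in the pulldown. These lists do not stand for secreted and membrane proteins as a class, since most myelin genes tested fell. Of 36 collagen and fibronectin genes tested from 45, 20 rose and 4 fell (median 0.45). Of the rises, 19 were of genes that passed the filter in both groups. After adjustment for GC content 17 collagen and fibronectin genes rose and 8 fell, with a median of 0.24. Col18a1 and Col4a1, of basement membranes, rose from 12.4 ± 0.279 to 34.6 ± 3.63 CPM and 47.9 ± 4.18 to 107 ± 4.49 CPM, and Col5a2, a fibrillar collagen, changed by 1.37 ± 0.07. The falls were Col20a1 (-1.58), Col4a3 (-0.68), Col4a5 (-0.21) and Col16a1 (-0.20). Col16a1 lost its call without whole-cell replicate 2 (-0.13). Of 26 integrin and laminin genes tested from 31, 17 rose and 2 fell, Lama3 and Lamb2 (-1.74 and -0.37), with a median of 0.37. Among the rises, 16 were of genes that passed the filter in both groups. Lamb1, a laminin chain, stood at 11.3, 12.1 and 9.88 CPM in whole-cell RNA and 34.6, 34.6 and 37.7 CPM in pulldown RNA (1.60 ± 0.09), with the groups well apart, and Itgb8, an integrin subunit, changed by 0.78 ± 0.06.

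Of 29 semaphorin, plexin and neuropilin genes, which guide axons and migrating cells, 21 rose and 4 fell (median 0.48). Sema7a, a membrane-anchored semaphorin, stood at 9.82, 13.1 and 12.7 CPM in whole-cell RNA and 30.6, 28.4 and 32.4 CPM in pulldown RNA (1.30 ± 0.10). The plexin gene Plxna4 stood at 11.7, 10.7 and 12.7 CPM in whole-cell RNA and 32.00, 28.4 and 27.8 CPM in pulldown RNA (1.26 ± 0.10). The falls were Plxnb3 (-0.93), Sema4g (-0.63), Sema3c (-0.35) and Nrp1 (-0.27). Of 83 cadherin and protocadherin genes tested from 100, 56 rose and 5 fell (median 0.41), the falls being Cdhr2, Cdh19, Pcdh9, Pcdh7 and Fat3 (-0.17). Among the rises, 55 were of genes that passed the filter in both groups. Fat3 lost its call in 5 of the 6 fits that left out 1 library, all but the one without pulldown replicate 1, with changes from -0.14 to -0.19. Pcdhgc3, of the clustered gamma protocadherins that give neurons and glia a surface identity, changed by 1.39 ± 0.08, and Cdh22 by 1.22 ± 0.08. Clustered protocadherins share their last exons, so that their counts are not independent of each other.

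Of 53 potassium channel genes tested from 85, 28 rose and 6 fell (median 0.33), with 3 falls when whole-cell replicate 2 was left out or library totals were used. Among the rises, 27 were of genes that passed the filter in both groups. Kcnj10, the inward rectifier Kir4.1 of glia, rose from 24.1 ± 1.72 to 48.8 ± 2.88 CPM, and the subunit genes Kcnmb4 and Kcne4 changed by 1.00 ± 0.07 and 1.28 ± 0.16. Of 32 glutamate and GABA receptor genes tested from 44, 13 rose and 6 fell. Their median of 0.06 lay between 0.03 and 0.11 when 1 library was left out, lowest without whole-cell replicate 3 and highest without whole-cell replicate 1, and was 0.17 after adjustment for GC content and 0.29 among genes with a mean of at least 10 CPM. Gria2, the AMPA receptor subunit that limits calcium entry, changed by -0.53 ± 0.05, and Grin3a, an NMDA receptor subunit, by 0.82 ± 0.10. The signal recognition particle and the translocon bring secreted and membrane proteins into the endoplasmic reticulum. Their genes were split, with 7 rises and 10 falls among 19 (median -0.32, or -0.19 after adjustment for GC content and 0.04 under miR-27a). Ssr2 and Srprb rose (0.74 and 0.55), while Sec61g and Srp54c fell (-0.65 and -0.90). The Srp54 genes are near-identical copies.

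**Figure D3:**
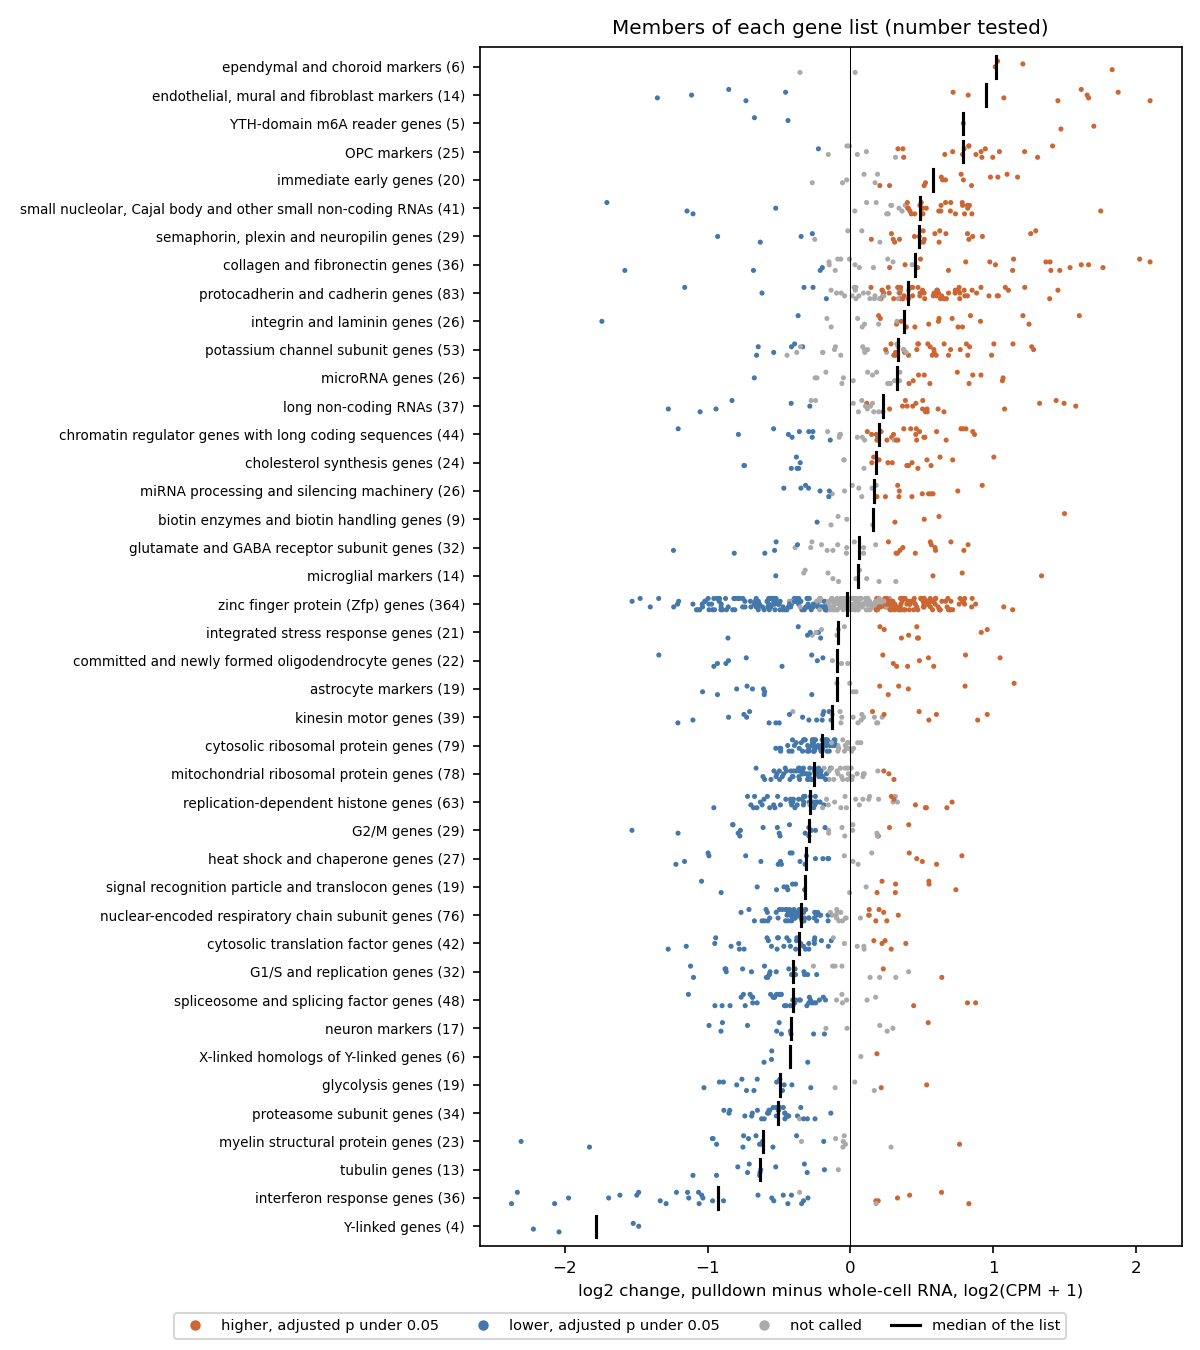
Log2 change of every tested member of each gene list (points, 1 row a list, number tested in brackets), coloured by call, with the list's median as a bar. The medians of the cadherin, potassium channel, matrix, snoRNA and OPC lists lie to the right of 0. Those of proteasome, tubulin, myelin, interferon response and Y-linked genes lie to the left.

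The genes of the machinery that a mimic enters were measured next. Ago2 is named Eif2c2 in the table and stood at 17.98, 21.00 and 20.2 CPM in whole-cell RNA and 21.8, 26.4 and 27.9 CPM in pulldown RNA (0.34 ± 0.10). Its relatives Eif2c1 and Eif2c4, which encode AGO1 and AGO4, changed by 0.58 ± 0.09 and 0.92 ± 0.08. The genes of their silencing partners Tnrc6a, Tnrc6b and Tnrc6c changed by 0.24 ± 0.06, 0.50 ± 0.07 and 0.75 ± 0.07, and Dicer1, of the enzyme that makes microRNAs from their precursors, by -0.29 ± 0.05. Of 26 miRNA processing and silencing genes tested from 27, 12 rose and 7 fell (median 0.17, 0.11 without whole-cell replicate 1). Falls numbered 4 without whole-cell replicate 3, without pulldown replicate 3 and with library totals. These are levels of mRNA and do not measure the proteins.

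Streptavidin also binds the few cellular enzymes that carry biotin, so their genes and those of biotin handling were listed. The values are levels of mRNA and do not measure the enzymes or their capture. Of 9 tested, 4 rose and 1 fell (2 without pulldown replicate 1; median 0.16, or -0.01 when changes were adjusted for GC content and -0.03 among genes with a mean of at least 10 CPM). Leaving out 1 library gave medians from 0.02 (without pulldown replicate 2) and 0.04 (without whole-cell replicate 3) to 0.27 (without whole-cell replicate 1) and 0.28 (without pulldown replicate 3). Acaca, acetyl-CoA carboxylase 1, stood at 169, 175 and 173 CPM in whole-cell RNA and 444, 545 and 481 CPM in pulldown RNA (1.497 ± 0.06). The transporter gene Slc5a6 changed by 0.62 ± 0.12, the biotin-recycling enzyme gene Btd by 0.52 ± 0.08 and Hlcs, which attaches biotin, by 0.31 ± 0.13. The call of Hlcs was lost in 5 of the 6 fits that left out 1 library, in which its change lay between 0.23 and 0.33. Pccb, of propionyl-CoA carboxylase, fell (-0.23 ± 0.06). Its partner Pcca changed by -0.14 ± 0.08 (adjusted p = 0.143), which did not pass the test, and was called lower (-0.21) without pulldown replicate 1.

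Genes of the YTH proteins, which read N6-methyladenosine in RNA, were listed after Ythdf2 was seen among the rises. Ythdf2, which leads methylated mRNA to decay, stood at 138, 138 and 135 CPM in whole-cell RNA and 410.4, 487 and 449.6 CPM in pulldown RNA (1.70 ± 0.05). Ythdf1 stood at 51.4, 50.4 and 48.4 CPM in whole-cell RNA and 135, 152 and 136 CPM in pulldown RNA (1.47 ± 0.06), and Ythdf3 changed by 0.79 ± 0.05. The genes of the other two readers, the nuclear Ythdc1 and the helicase Ythdc2, fell (-0.44 ± 0.07 and -0.67 ± 0.06). The 3 cytoplasmic readers are close in sequence, and the mRNAs of all 3 rose in every pulldown library relative to every whole-cell library.

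Growth and stress programmes were split. Of 20 immediate early genes tested from 25, which respond within minutes to stimuli, 14 rose and none fell by limma (median 0.58). At an unadjusted p under 0.05, 1 was lower, and voom called 0 lower. Leaving out pulldown replicate 3, median-of-ratios scaling, array weights and GC adjustment each gave 1 fall. Ier3 stood at 13.4, 12.5 and 13.9 CPM in whole-cell RNA and 31.4, 32.1 and 29.8 CPM in pulldown RNA (1.17 ± 0.09), Jun rose from 75.04 ± 8.32 to 149 ± 10.7 CPM, and Btg2 and Ier5 changed by 1.03 ± 0.08 and 1.10 ± 0.09. Of 21 integrated stress response genes 9 rose and 6 fell (median -0.09, -0.06 without whole-cell replicate 1, 0.06 after adjustment for GC content and 0.01 with library totals). Trib3 and Cebpb rose (0.96 and 0.91), and the serine synthesis gene Phgdh fell (-0.86). Of 24 cholesterol synthesis genes tested 14 rose and 7 fell (median 0.18). Hmgcs1, which acts near the start of the pathway, changed by -0.74 ± 0.05, and Sqle, the squalene epoxidase gene, by 0.63 ± 0.05.

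Cell cycle genes fell more often than they rose. Of 32 genes of G1/S and replication 22 fell, and Cdc25a and E2f2 rose (0.23 and 0.64; median -0.40). Cdc25a lost its call without whole-cell replicate 3 (0.19). Pcna, the sliding clamp of DNA polymerases, fell from 203 ± 3.70 to 119.9 ± 3.84 CPM, and Pola1, the catalytic subunit gene of DNA polymerase alpha, changed by -1.10 ± 0.08. Of 29 G2/M genes 18 fell and Plk1, Cenpa and Ccnb1 rose (0.41, 0.27 and 0.19; median -0.29, or -0.18 after adjustment for GC content). Cenpa lost its call without whole-cell or pulldown replicate 3 (0.21 and 0.23) and Ccnb1 without whole-cell or pulldown replicate 2 (0.17 and 0.13). The long kinetochore genes Cenpf and Cenpe stood out among the falls, at -1.53 ± 0.07 and -1.21 ± 0.08, and the proliferation marker Mki67 changed by -0.77 ± 0.05. Of 63 replication-dependent histone genes tested from 68, 39 fell and 7 rose (median -0.28), with Hist1h1b at -0.96 ± 0.07. Without whole-cell replicate 2, 26 fell and the median was -0.18, and 28 fell in the fit of all 12 libraries.

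Chromatin regulator genes with long coding sequences held 26 rises and 10 falls among 44 (median 0.20). Ep300, an acetyltransferase, and Tet3, which oxidises methylated cytosine, rose from 19.9 ± 0.528 to 37.1 ± 0.624 CPM and 14.2 ± 0.231 to 26.5 ± 1.51 CPM, while Atrx, a chromatin remodeller, fell from 473 ± 26.9 to 205 ± 18.96 CPM. Of 39 kinesin genes 18 fell and 7 rose (median -0.13, or -0.08 without whole-cell replicate 2 and -0.04 with library totals), Kif5b, a motor of long-range transport, at -1.21 ± 0.05, Kif21a at -1.10 ± 0.06 and Kif13a at 0.89 ± 0.05. Of 364 Zfp zinc finger genes tested from 395, 102 rose and 124 fell, shares of calls near those over all genes. Against 301 and 232 of all genes tested, 2 of this list were at least 2-fold higher and 15 at least 2-fold lower. The median of -0.03 was -0.01 without pulldown replicate 3 and -0.05 without pulldown replicate 2, was 0.00 without pulldown replicate 1, and turned to 0.06 after adjustment for GC content and with library totals. Zfp40 and Zfp37 changed by -1.47 ± 0.09 and -1.04 ± 0.06 and Zfp41 by 0.88 ± 0.05. Some genes stand in 2 lists, among them Aldoc, Tubb3, Pcdh15, Cdh5 and the fibrillar collagens, and are counted in each.

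Transcript properties were then set beside the change (coding length had chosen the chromatin regulator list), over protein-coding genes with an annotated transcript. Coding GC content had the largest rho of the properties measured under the control mimic. With genes in 5 groups of equal size by coding GC content, the median change was -0.29 in the lowest group, then -0.09, 0.03 and 0.10, and 0.24 in the highest, with a Spearman's rho of 0.37 across 12568 genes. The coefficient was 0.38, 0.30 and 0.39 when pulldown libraries 1, 2 and 3 were each set against the whole-cell mean. It was 0.32 for GC content of the whole transcript, 0.26 for that of the 3′ untranslated region and 0.13 for that of the 5′ untranslated region. All genes share the same 6 libraries and genes are not independent replicates, so rho is a description and carries no p-value.

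Under miR-27a mimic rho was 0.24 for coding GC content, 0.20 for GC content of the whole transcript, 0.18 for transcript length and -0.21 for mean CPM, so coding GC was again the largest in size, by a narrower margin. Under the control mimic, Spearman's rho was 0.13 for transcript length, 0.09 for coding length, -0.06 for the number of exons and -0.00 for the span of the gene. With mean CPM it was -0.20, genes of low level lying higher in the pulldown. Protein-coding genes at least 2-fold higher in the pulldown, 277 in number, had a median GC content of 53.8%, those at least 2-fold lower, 215 in number, of 43.3%, and all 12572 tested of 49.97%. Adjusting each change for GC content left the lists' medians on the same side of 0 for myelin (-0.57), OPC markers (0.57), interferon response (-0.80), proteasome (-0.55) and cadherin genes (0.42). It moved the medians of collagen genes from 0.45 to 0.24, of G2/M genes from -0.29 to -0.18, of the X-linked homologs from -0.42 to -0.13, and of long non-coding RNAs from 0.23 to 0.40.

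**Figure D4:**
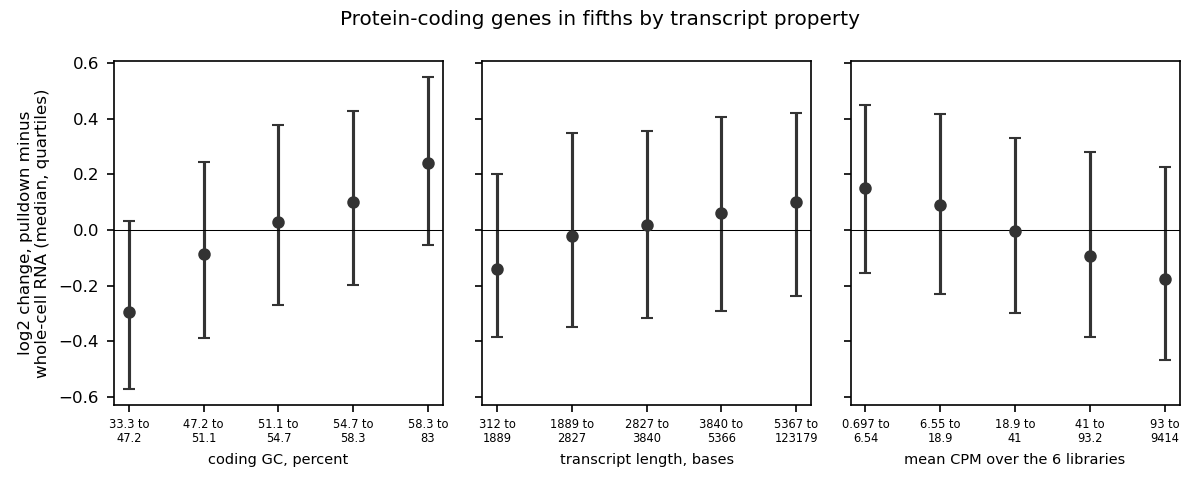
Median log2 change (points) with quartiles (bars) of protein-coding genes in 5 equal-sized groups by coding GC content, transcript length and mean CPM. The median rises from -0.29 to 0.24 from the lowest to the highest group of coding GC content and spans a narrower range for the other properties.

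The same contrast was read in the 6 miR-27a libraries, none of which enters the control-mimic comparison. There, 7875 of 13536 genes tested (58.2%) passed the test. Of 8758 genes called under the control mimic and tested under both, 8479 (96.8%) had the same sign under miR-27a; 3267 were called higher in both, 3404 lower in both and 27 in opposite directions. Of 528 at least 2-fold changes, 527 kept their sign, the exception being Srp54b, one of the near-identical Srp54 copies. Across 13349 genes Pearson's r was 0.90 and Spearman's rho 0.90. Dll3 changed by 2.17 under miR-27a against 2.19 under the control mimic, Mcm3ap by 1.70 against 1.92, Ythdf2 by 1.54 against 1.70, and Mobp by -2.596 against -2.30. Some list medians lay further apart, at 0.04 against -0.32 for the signal recognition particle and translocon list (8 higher and 8 lower under miR-27a). The median was -0.58 against -0.93 for interferon response genes and -0.35 against -0.09 for committed oligodendrocyte genes. For astrocyte markers it was -0.34 against -0.10, and for semaphorin, plexin and neuropilin genes 0.25 against 0.48. For G2/M genes it was -0.11 against -0.29, with 10 falls under miR-27a in place of 18.

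The difference of the contrast between mimics passed the test in 149 of 13875 genes (1.07%), by an interaction term over all 12 libraries. Among the myelin genes named above, Mag, Mbp and Opalin fell further under miR-27a, Mag changing by -1.74 against -0.96 (adjusted p of the difference = 0.00249), Mbp by -2.50 against -1.83 (0.00249) and Opalin by -1.40 against -0.97 (0.0241). Rn45s rose less under miR-27a (1.16 against 1.88, adjusted p of the difference = 0.0485). Rmrp, which rose under the control mimic, changed by -0.19 under miR-27a (0.0389). For the other genes a p above the threshold does not show that the mimics act alike.

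**Figure D5:**
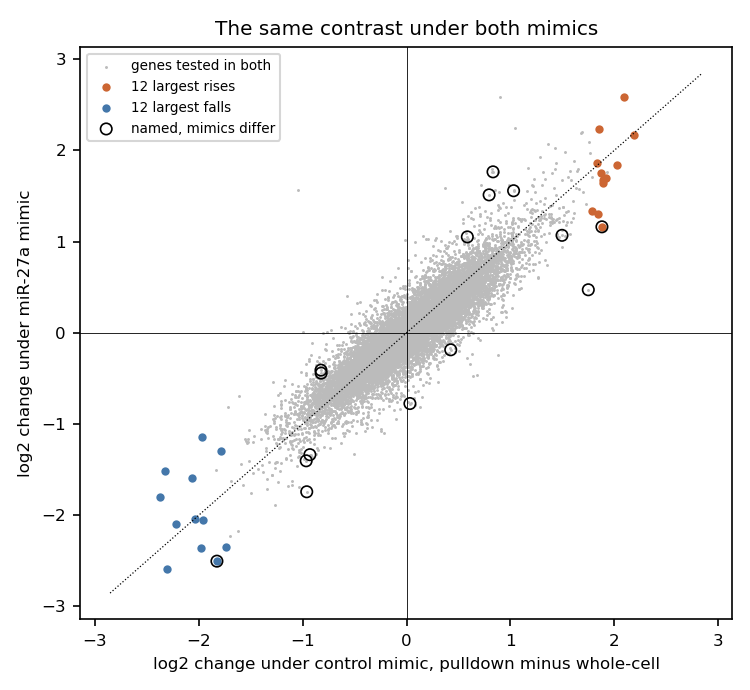
Log2 change of pulldown against whole-cell RNA under the control mimic (x axis) and under miR-27a mimic (y axis), 1 point a gene tested in both, with the dotted line marking equal changes. The 12 largest rises and falls are coloured and named genes whose change differed between mimics are ringed; most genes lie along the line (Pearson's r 0.90 across genes).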

How the data were processed

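RNA was measured in 6 libraries of control-mimic OPCs, 3 of pulldown and 3 of whole-cell RNA, and in 6 of miR-27a cells. Groups and replicate numbers came from the sample titles. Per the series' design text, total RNA was depleted of ribosomal and globin RNA, and reads were trimmed with skewer, aligned with HISAT2 to GRCm38, counted per gene with featureCounts and normalised with edgeR by the authors. Versions and the strand setting of counting are not stated in any source used here. A further build, mm8, is listed in the submitters' processing notes with no role. Alignment and counting settings decide how reads of near-identical or overlapping genes are shared, which the values cannot show.

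The authors deposited log2 CPM values for 20540 genes. CPM was recovered by removing the prior of 0.25 reads, and 100% of values were whole multiples of 1 read within a tolerance of 0.01 reads, so that depth could be read. The libraries held 15548418 to 24972188 reads, and a gene with 0 reads allows up to the CPM of 3 reads there (counting error only).

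Genes with at least 1 CPM in 3 or more of the 6 libraries were tested with limma 3.58.1 on log2(CPM + 1) in a two-sided empirical Bayes test with a trend over mean level, Benjamini-Hochberg adjustment over all genes tested and a threshold of 0.05. Where design choices had assumed counts, this test replaced the count test. The steps were tested on simulated data. Alternatives were other pseudocounts (0.25 and 5), filters, scalings, a threshold of 0.01, array weights, 1 fit of all 12 libraries, voom on recovered reads, a replicate block, leaving out each library, and, chosen after seeing the data, an adjustment of each change by the running median of the 501 genes nearest in GC content. Exact permutation tests were used for single values.

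Members, 41 gene lists and tests were chosen with earlier results of these data known, and 2 lists (interferon response and YTH genes) and some list exclusions were set after values were seen. Named genes are the 12 largest rises and falls among called genes that reached a mean of 5 CPM in either group, had groups without overlap and no provisional symbol, up to 6 members of each list with the smallest p, and a fixed set of marker and reference genes; a few of these are not reported here. Symbols were matched to GENCODE M21 for 19655 of the 20540 genes, 1718 through older symbols; coordinates are from there.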

Additional observations from a re-analysis of the deposited data

Results flagged for a closer look

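Among the named genes, 15 had a change between pulldown and whole-cell RNA that differed between the mimics by an interaction term over 12 libraries (limma, adjusted p under 0.05 over all genes). Differences are log2 change under miR-27a minus that under the control mimic. Lower changes under miR-27a were found for the myelin genes Mbp (-0.68), Mag (-0.78) and Opalin (-0.44, adjusted p = 0.0241), for Sirt2 (-0.41), the cilia factor gene Foxj1 (-0.81, adjusted p = 0.00695), Acaca (-0.43), Rn45s (-0.72), Rmrp (-0.61) and Scarna2 (-1.28, adjusted p = 0.0486). Higher changes under miR-27a were found for Top2a (0.38), Anln (0.41), Btg2 (0.53), Pcdh15 (0.72), and the potassium channel genes Kcnd2 (0.47) and Kcna1 (0.93, adjusted p = 0.00158). Over all genes 149 of 13875 passed this test, so these are members of a set of 1.07% of genes. Groups of 3 are too small for a search for single libraries that stand apart, which was not made.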

How the results depend on the processing

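The count of called genes (8821) stayed between 8016 and 8758 when each library was left out in turn, and that of at least 2-fold changes (533) between 511 and 584. A replicate block gave 8609 called genes and 533 at least 2-fold. Deviations of same-numbered libraries correlated at -0.06, -0.10 and 0.01, so the numbers were not taken to pair the samples. At least 2-fold changes numbered 812 with a pseudocount of 0.25, 244 with 5 and 944 with voom on recovered reads. Lowering or raising the pseudocount changes how far low genes can move. With library totals 5235 genes were higher and 3640 lower, and list medians shifted up by 0.05 to 0.09. Among named genes, Foxj1 reversed to -0.27 after the GC adjustment (0.03 before, not called). Among genes named by the rule, Ptprc, Hlcs, Zfx and Kdm6a lost their call under at least 1 alternative, and Cd68, Tyrobp, Rarres2, Pcca, Kdm5c and Sox10 gained one. Of genes named as the few that went one way, Mrpl4, Mrpl12, Pabpc1, Eif1b, Hk2, Hspa1b, Col16a1, Fat3, Cdc25a, Cenpa and Ccnb1 lost their call in at least 1 fit without a library, as given beside them. Calls lost with library totals were those of Rlbp1, Col4a5, Col16a1 and Fat3. Calls lost after GC adjustment were those of Cdh19, Sema3c, Plk1, Mrpl4, Mrpl12, Eif1b, Hk2, Hspa1b, Cdc25a and Fat3. Depth limits low genes most: a gene at 1 CPM has 14.98 to 25.9 reads in a library. List counts moved by over 1.5 times in 78 comparisons of a list's calls between settings and by less in 1470, 20 of them with a filter at a mean of 10 CPM, which leaves fewer genes to test. A pseudocount of 5 brought medians of lists with low genes closer to 0, such as that of myelin genes to -0.27 and of interferon response genes to -0.39. That filter left 13 of 28 interferon falls, 21 of 56 cadherin rises and 11 of 28 potassium channel rises, and with no filter 27 microRNA genes rose in place of 11. The other moved counts were mostly of the smaller direction of a list, such as neuron marker rises (1, and 3 with library totals, without pulldown replicate 2 or after GC adjustment), collagen falls (4, and 8 after GC adjustment) and G1/S rises (2, and 5 with library totals). The cause of these moves was not tested except where fewer genes were tested.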
